A study of Mus musculus with 2 samples.

Results

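Genes for the uptake, binding and activation of fatty acids were examined in livers of apolipoprotein E-deficient mice given squalene. The 10 genes were Cd36, Slc27a2 and Slc27a4 for uptake, Fabp1, Fabp2, Fabp4 and Fabp5 for binding, and Acsl1, Acsl4 and Acsl5 for activation. They were chosen by name, and each was read from the array probe sets annotated with that symbol alone. Of these, 9 genes with 18 probe sets were found among 12393 genes, and Acsl1 was not analysed here. Where a gene had several probe sets, the one with the highest mean log2 signal over both pools represented it, and the others are given beside it.

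The squalene group was 1 array of pooled liver RNA from male mice whose drink held 1% glycerol and delivered 1 g of squalene per kg each day over 10 weeks. The control group was 1 array of pooled liver RNA from male mice on the glycerol drink without squalene over the same 10 weeks. All animals were apolipoprotein E-deficient on a C57BL/6J/ OLA129 background, ate chow, and were labelled as 2 months old, so the control carries the same deletion. How many animals made up each pool is not stated. With 1 array per group no test between the groups was possible, and every ratio below compares these 2 pools.

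Long-chain fatty acids reach the hepatocyte from plasma albumin and from lipoproteins, and cross the membrane with the help of CD36 and of fatty acid transport proteins of the SLC27 family. Inside the cell they are carried by fatty acid binding proteins, of which FABP1 is the liver form. Long-chain acyl-CoA synthetases then join them to coenzyme A, the step that commits them to oxidation or to storage in lipids. Many of these genes are targets of the nuclear receptor PPAR alpha, which senses fatty acids and binds DNA together with RXR at direct repeats of the half-site AGGTCA.

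The 2 arrays had similar median and highest signals, while their spike-ins differed. The median signal was 41.35 in the squalene pool and 39.9 in the control pool, and the highest signals were 20695.1 and 22342.9. The hybridization spike-ins had a median log2 ratio of -0.26, and all 18 of their probe sets read lower in the squalene hybridization. Apoe itself read 130.6 in the squalene pool and 141 in the control pool on its single probe set. This probe set cannot check the deletion, since which part was deleted is not stated in the labels. Hepatocyte markers were bright on both arrays, with all 17 that were found at or above the array median in both pools and a median log2 ratio of -0.06. The 2 brightest, Apoa1 and Apoa2, stood at -0.06 and -0.15.

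The 9 fatty acid handling genes had a median log2 ratio (squalene over control) of 0.03, beside 0.01 over all 12393 genes, and ran from -0.44 for Fabp2 to 0.46 for Acsl4. Signals at or above the array median in both pools are called well read here, and all 9 genes were well read on their representing probe set. No gene was higher and none was lower by more than 0.5 on the log2 scale, against 7.85% and 6.35% of the 6459 well read genes (21.5% and 19.8% of all genes). At these shares a count of 0 among 9 genes is near the background. None passed 1.5, the limit the submitters used as a screen, which 0.124% of well read genes and 15.2% of all genes passed. For 6 of the 9 the ratio of the representing probe set was at most 0.2 in size, as it was for 48.4% of well read genes, and Fabp1 and Fabp4 among these 6 have a second well read probe set at -0.33 and 0.58. Acsl4 read higher and Fabp2 and Fabp5 read lower in the squalene pool by 1.34-fold to 1.38-fold. With a narrower band of 0.3, Acsl4 was the 1 gene higher and Fabp2 and Fabp5 were the 2 lower, against 18.3% and 15.1% of well read genes (29.8% and 26.7% of all).

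**Figure D1:**
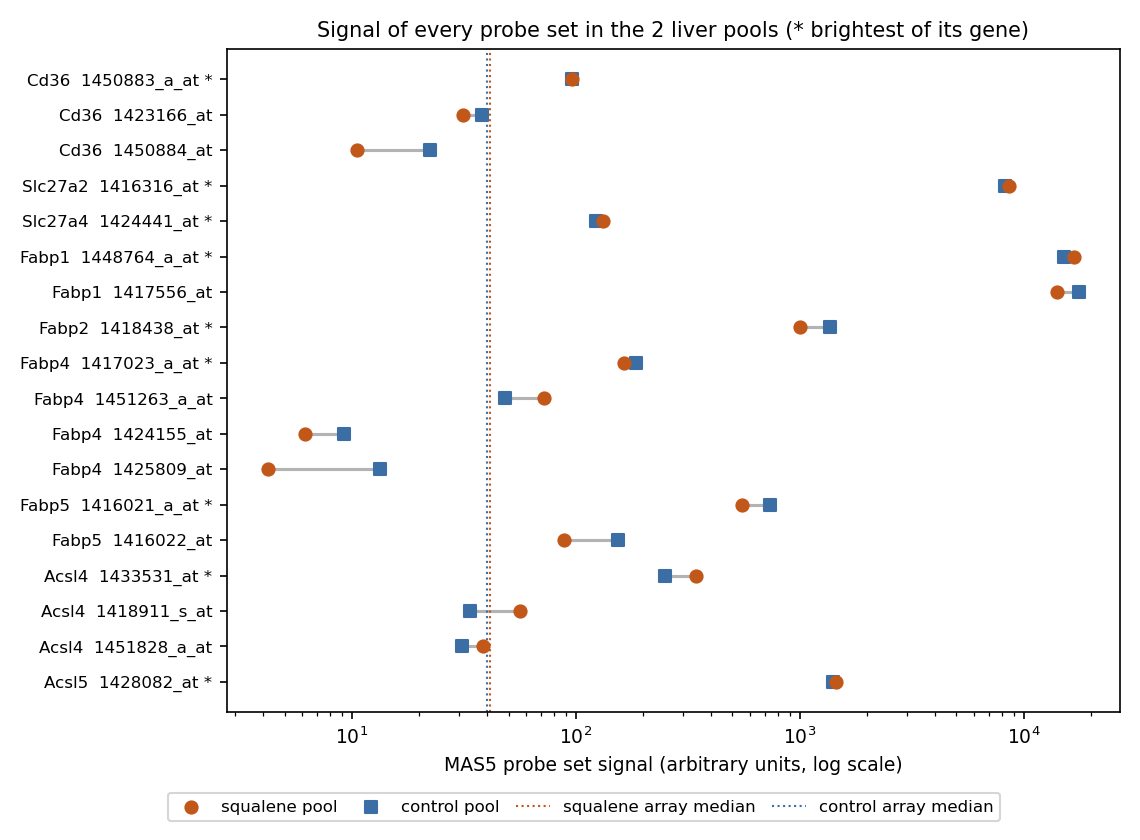
MAS5 signal of each of the 18 probe sets (log axis, arbitrary units) in the squalene pool (circles) and the control pool (squares), 1 array each, with the array medians as dotted lines and an asterisk at the brightest probe set of a gene. The pools lie close together for Slc27a2, Slc27a4, Acsl5 and the brightest probe set of Cd36, while the 2 probe sets of Fabp1 differ in opposite directions.

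Without replicate arrays, disagreement among probe sets of 1 gene was taken as the error. Probe sets were put into 3 equal bins by mean signal. In the bright bin, log2 ratios of 1 gene differed between its probe sets with an SD of 0.235 (1411 genes), against 0.705 in the middle bin and 1.91 in the dim bin. With 10 bins, a finer division made after the values were seen, the SD was 0.146 in the brightest bin, 0.222 in the next, and 0.307 and 0.39 in the 2 that follow. These SDs cover disagreement between probe sets and say nothing of the spread between animals. Of the 9 genes, 8 lay in the bright bin and Cd36 in the middle bin.

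Of the 18 probe sets, 12 were well read and 2 of these lay beyond 0.5, a second probe set each of Fabp5 (-0.80) and Fabp4 (0.58), beside 15.0% of all 9611 well read probe sets with 1 gene symbol. Of the 6 with a signal below the array median, 4 lay beyond it, beside 70.7% of all 10769 such probe sets, so both counts are near the background.

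Upstream sequences of 3 genes are shown because Fabp2 and Acsl4 marked the lower and upper end of the ratios and Fabp1 was read in opposite directions by its probe sets. Each is the 250 bases before the transcript start in the RefSeq promoter table, written 5′ to 3′ on the strand of the gene. Capitals mark the half-site AGGTCA, searched on both strands (TGACCT on the other strand), and the repeat AGGNCANAGGTCA, which contains 1 such half-site.
Fabp1, GRCm38.p6, chr6:71199629-71199878, plus strand: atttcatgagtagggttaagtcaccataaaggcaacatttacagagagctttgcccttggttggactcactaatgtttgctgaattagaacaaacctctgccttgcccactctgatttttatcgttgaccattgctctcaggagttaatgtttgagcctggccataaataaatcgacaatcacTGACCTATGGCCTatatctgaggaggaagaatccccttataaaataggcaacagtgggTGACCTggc
Fabp2, GRCm38.p6, chr3:122894822-122895071, plus strand: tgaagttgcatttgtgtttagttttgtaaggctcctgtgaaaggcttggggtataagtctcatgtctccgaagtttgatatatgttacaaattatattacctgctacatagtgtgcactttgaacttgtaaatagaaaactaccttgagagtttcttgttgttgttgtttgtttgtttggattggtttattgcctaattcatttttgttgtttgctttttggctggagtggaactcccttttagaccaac
Acsl4, GRCm38.p6, chrX:142390536-142390785, minus strand: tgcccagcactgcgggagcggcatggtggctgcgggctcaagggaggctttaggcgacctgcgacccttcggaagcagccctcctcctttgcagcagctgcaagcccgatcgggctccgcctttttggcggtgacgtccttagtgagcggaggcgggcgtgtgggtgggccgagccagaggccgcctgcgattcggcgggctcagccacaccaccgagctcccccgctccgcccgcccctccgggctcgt
The Fabp1 window held TGACCTATGGCCT, a match to AGGNCANAGGTCA on the other strand, from 67 to 55 bases before the start, and a second half-site from 9 to 4 bases before it. It also held TATAAA from 30 to 25 bases before the start. The repeat was written after the Fabp1 sequence was seen, on the basis of the PPAR response element known in the rat liver FABP gene, and 27 of 32851 windows of this length in the table (0.0822%) held it. The exact repeat AGGTCANAGGTCA was in 11 windows (0.0335%) and in none of these genes. Half-sites were found in 14.0% of all windows, and among the 7 genes with an entry in Fabp1, Cd36 and Slc27a2, with 1 each in the last 2. The Fabp2 and Acsl4 windows held none of these motifs. They differed in base composition, with 35.6% G and C and 1 CpG for Fabp2 against 70.8% and 25 for Acsl4, beside a median of 52.4% and 6 over all windows. These matches describe letters in a window and are no evidence of binding.

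The uptake genes had log2 ratios from 0.01 to 0.11 on their brightest probe sets. Slc27a2 encodes FATP2, a transporter of hepatocytes that also activates very long chain fatty acids at the peroxisome and the endoplasmic reticulum. Its single probe set read 8591.6 in the squalene pool and 8253.9 in the control pool, a log2 ratio of 0.06. Slc27a4, which encodes FATP4, a related acyl-CoA synthetase and transporter best known from intestine and skin, read 132.7 in the squalene pool and 122.8 in the control pool (0.11). Both ratios were smaller than the SD of 0.235 between probe sets of the same gene.

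Cd36 encodes a scavenger receptor for long-chain fatty acids and oxidised lipoproteins that is found on adipocytes, macrophages and capillary endothelium and is low in hepatocytes of lean animals. Its brightest probe set read 96.5 in the squalene pool and 95.6 in the control pool, a log2 ratio of 0.01. The others read 31.4 in the squalene pool against 37.9 in the control pool (-0.27), and 10.5 against 22.2 (-1.08). Both of these lay below the array median in each pool, in bins of signal where probe sets of 1 gene had an SD of 0.705 and 1.91. The sign of the Cd36 value therefore depends on the probe set, and it also passed below 0 after quantile normalization (-0.03), loess (-0.03) and median centring (-0.02).

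Among the binding proteins, Fabp2 and Fabp5 read lower in the squalene pool, Fabp4 did not stand apart, and Fabp1 could not be placed. Fabp2 encodes the intestinal fatty acid binding protein, which is best known from enterocytes. Its single probe set read 1004.6 in the squalene pool and 1363.0 in the control pool, 1.36-fold lower with a log2 ratio of -0.44. That is 1.87 times the SD of the bright bin and 3.02 times that of the brightest of 10 bins. With 10 bins the brighter probe set of Fabp5 was at 2.87 times the SD of its bin. The second probe set of Fabp1 was at 2.28 times and the brightest of Acsl4 at 2.07 times. Of the 6459 well read genes, 8.10% had a ratio below that of Fabp2. Enterocyte markers were mostly dim, with 5 of the 13 found higher by more than 0.5, 4 lower and 4 between. Of all probe sets with 1 gene symbol and a signal below the array median, 70.7% lay beyond 0.5 in either direction. The 2 well read were Apoa4 and Anpep, which the liver also expresses, with log2 ratios of 0.03 and 0.16. Vil1, the brush border villin, read 6.8 in the squalene pool and 4.4 in the control pool.

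Fabp5, which encodes the epidermal type of binding protein and is also found in macrophages, read lower on both of its probe sets. The brighter read 550.3 in the squalene pool and 735.2 in the control pool, a log2 ratio of -0.42, or 1.78 times the SD of the bright bin. The other read 88.9 in the squalene pool and 154.3 in the control pool (-0.80). Both probe sets were well read, and 9.07% and 1.52% of well read genes had ratios below theirs. Fabp5 was thus 1.34-fold lower in the squalene pool by 1 probe set and 1.74-fold lower by the other, with only the dimmer beyond the band of 0.5.

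Fabp4 encodes the adipocyte binding protein, also made by macrophages and capillary endothelium. Its 4 probe sets gave no common direction. The brightest read 164.3 in the squalene pool and 184.7 in the control pool (-0.17), and the next read 72.3 against 48.3 (0.58), both well read. The 2 dim ones read 6.2 against 9.2 (-0.57) and 4.2 against 13.3 (-1.66), where probe sets of 1 gene had an SD of 1.91. The last of these was the only one of the 18 probe sets past the limit of 1.5. In the RefSeq gene table Fabp5, Pmp2, Fabp9, Fabp4 and Fabp12 follow each other along chromosome 3 with no other protein-coding gene between them. Fabp9 was dim, at 12.6 in the squalene pool and 8.7 in the control pool, and Pmp2 and Fabp12 were not analysed here.

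Fabp1, the abundant cytosolic binding protein of hepatocytes, was read in opposite directions by 2 probe sets of nearly equal brightness. The first read 16683.1 in the squalene pool and 15050.8 in the control pool, a log2 ratio of 0.15. The second read 14025.4 in the squalene pool and 17656.3 in the control pool, a ratio of -0.33. The first represents the gene because its mean log2 signal was higher by 0.01. The gap between both ratios was 0.48, and the SD over this pair was 0.340, against 0.146 in the brightest of 10 bins. Their mean ratio was -0.09. No direction can be given for Fabp1, and its signals lay near the top of the range of both arrays.

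**Figure D2:**
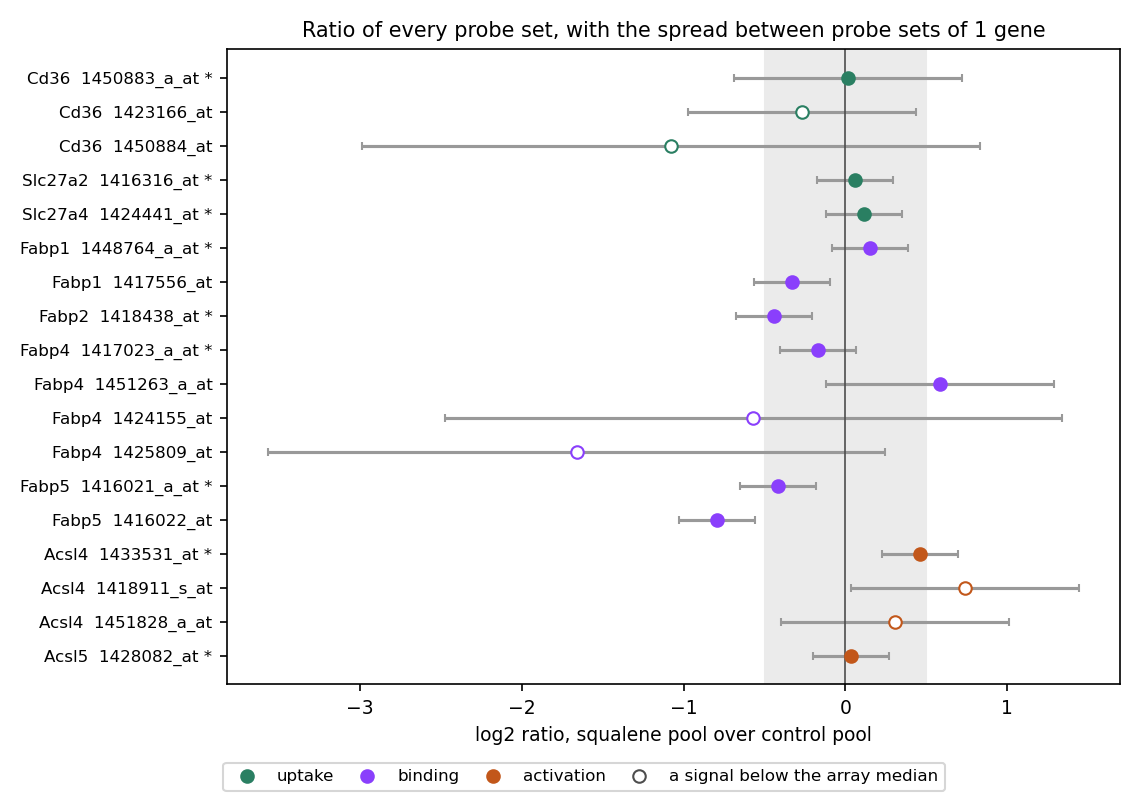
Log2 ratio (squalene over control) for each of the 18 probe sets, with bars of 1 SD between probe sets of the same gene in the same of 3 bins of mean signal, and the band of 0.5 shaded. Open circles have a signal below the array median in at least 1 pool. All 3 probe sets of Acsl4 lie above 0 and both of Fabp5 below 0, while those of Fabp1 and Fabp4 lie on either side.

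The acyl-CoA synthetases held the highest ratio of the 9 genes. Acsl4 encodes a synthetase with a preference for arachidonic acid and other polyunsaturated fatty acids. Its brightest probe set read 344.0 in the squalene pool and 250.2 in the control pool, 1.38-fold higher with a log2 ratio of 0.46. The 2 dimmer probe sets read 56.1 in the squalene pool against 33.6 in the control pool (0.74), and 38.3 against 31.0 (0.31). All 3 lay above 0, with a mean of 0.50. The brightest was 1.95 times the SD of the bright bin, and 90.8% of well read genes had a lower ratio. The others were at 1.05 and 0.433 times the SD of the middle bin, and each had a signal below the array median.

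Acsl5, a synthetase of the mitochondrial and endoplasmic reticulum membranes that is induced by SREBP-1 in liver, read 1444.7 in the squalene pool and 1411.3 in the control pool. Its log2 ratio of 0.03 on a single probe set was 0.143 times the SD of the bright bin.

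**Figure D3:**
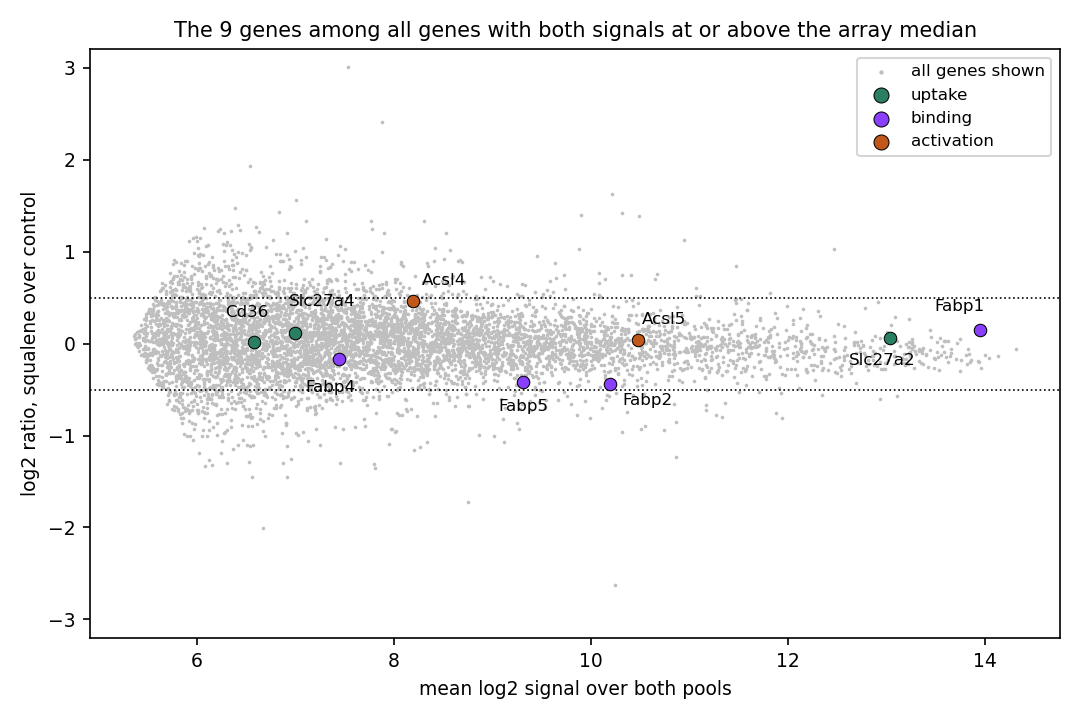
Log2 ratio (squalene over control) against mean log2 signal for the 6459 well read genes (grey) and the 9 genes on their brightest probe sets, coloured by role, with dotted lines at a log2 ratio of 0.5 in either direction. All 9 lie between the dotted lines, with Acsl4 nearest the upper and Fabp2 and Fabp5 nearest the lower line.

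The size of these values depends on how the arrays are scaled. Scaling to the spike-ins would raise each ratio by 0.26 and put the median of all probe sets at 0.29. The median of the 9 genes would then be 0.29, Acsl4 would stand at 0.72, Fabp1 at 0.41 and Fabp4 at 0.09, while Fabp2 (-0.18) and Fabp5 (-0.16) would still lie below 0. Among the 9 representing values, only that of Fabp4 would change sign under this scaling, and under median centring those of Cd36 and Acsl5 would. The order of the 9 genes is the same on either scale. Relative to the median of all probe sets, the spike-in scale gives the values of median centring, with Cd36 at -0.02 and Acsl5 at -0.0023.

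Other genes of the pathway were read from lists of transporters, binding proteins and synthetases. Counts beyond 0.5 in these and the later lists stand beside 21.5% of all genes higher and 19.8% lower. Among well read genes these shares were 7.85% and 6.35%. Of 7 other transporters and scavenger receptors, 1 was higher by more than 0.5, none was lower and 6 lay between, with a median of 0.02. The higher one, Slc27a3, was dim, at 5.9 in the squalene pool and 1.5 in the control pool. Slc27a5, the liver bile acid and very long chain acyl-CoA synthetase, read 4500.4 in the squalene pool and 4407.8 in the control pool (0.03). Slc27a1, a transporter of muscle and fat, was below the array median at 36.6 in the squalene pool and 33.7 in the control pool. Scarb1, the HDL receptor, stood at 0.02, with 0.103 and -0.005 on its other probe sets, and Cav1, the caveolae protein, at -0.16. Got2, the mitochondrial aspartate aminotransferase that has also been described as a membrane fatty acid binding protein, was at -0.04. A second well read probe set of Got2 was at 0.125.

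Of 10 other binding proteins, 3 were higher and 3 lower, 4 lay between, and the median was -0.03. Among the 5 well read ones none was higher and 2 were lower. These were Acbd6, an acyl-CoA binding protein, at -2.00 with a second probe set at 0.25, and Fabp7, the brain type of binding protein, which read 64.9 in the squalene pool and 119.7 in the control pool (-0.88). Dbi, the main acyl-CoA binding protein of the cytosol, had a brightest probe set at -0.24 and others at 0.03, -0.16 and 0.23. Scp2, a sterol and lipid carrier, had its brightest probe set at -0.16 and the next at -0.06. Its 2 least bright probe sets, also well read, were at 0.25 and 1.09, the latter with 600.2 in the squalene pool and 282.3 in the control pool.

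Of 10 other acyl-CoA synthetases, 3 were higher and 3 lower, 4 lay between, and the median was 0.17. Among the 6 well read ones 2 were higher and none was lower, with a median of 0.38. Acss2, the cytosolic acetyl-CoA synthetase, read 737.3 in the squalene pool and 516.5 in the control pool (0.51), and its other probe set gave 0.39. Aacs, which activates acetoacetate, stood at 0.72 (74.9 in the squalene pool, 45.4 in the control pool), with other probe sets at 0.70 and -1.22, both dim. Acsf3, a mitochondrial malonyl-CoA synthetase, was at 0.39, and Acsm3, a medium-chain synthetase, at 0.37. Acsl3 was not analysed here.

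Of 31 other PPAR alpha targets, 2 were higher and 8 lower, 21 lay between, and the median was -0.15. Of the 25 well read, none was higher and 4 were lower, Acot1 (-1.09), Plin2 (-0.78), Ehhadh (-0.67) and Acaa1b (-0.58), with a median of -0.13 beside 0.01 over all well read genes. Cpt1a, the mitochondrial carnitine acyltransferase, read 1917.1 in the squalene pool and 1704.8 in the control pool (0.17), with 2 dimmer but well read probe sets at 0.29 and 0.79. Scaling to the spike-ins would turn the median of this list to 0.11. The list was drawn up with earlier results of these data known and includes genes already seen to be lower, so its direction is not independent evidence.

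Of 17 transcriptional regulators, 3 were higher and 3 lower, 11 lay between, and the median was -0.06. Ppara read 944.3 in the squalene pool and 734.5 in the control pool (0.36). Ppargc1a, a coactivator of PPAR alpha, read 221.3 in the squalene pool and 74.8 in the control pool (1.56), and its 4 other probe sets gave 0.23 to 1.32. Foxo1, a transcription factor of the fasting response, stood at 0.60, with 0.76 and 0.79 on its 2 other well read probe sets. Rxrb, a partner of PPAR receptors, was at -0.79, and Srebf1, which encodes the lipogenic factor SREBP-1, read 307.9 in the squalene pool and 462.4 in the control pool (-0.59).

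**Figure D4:**
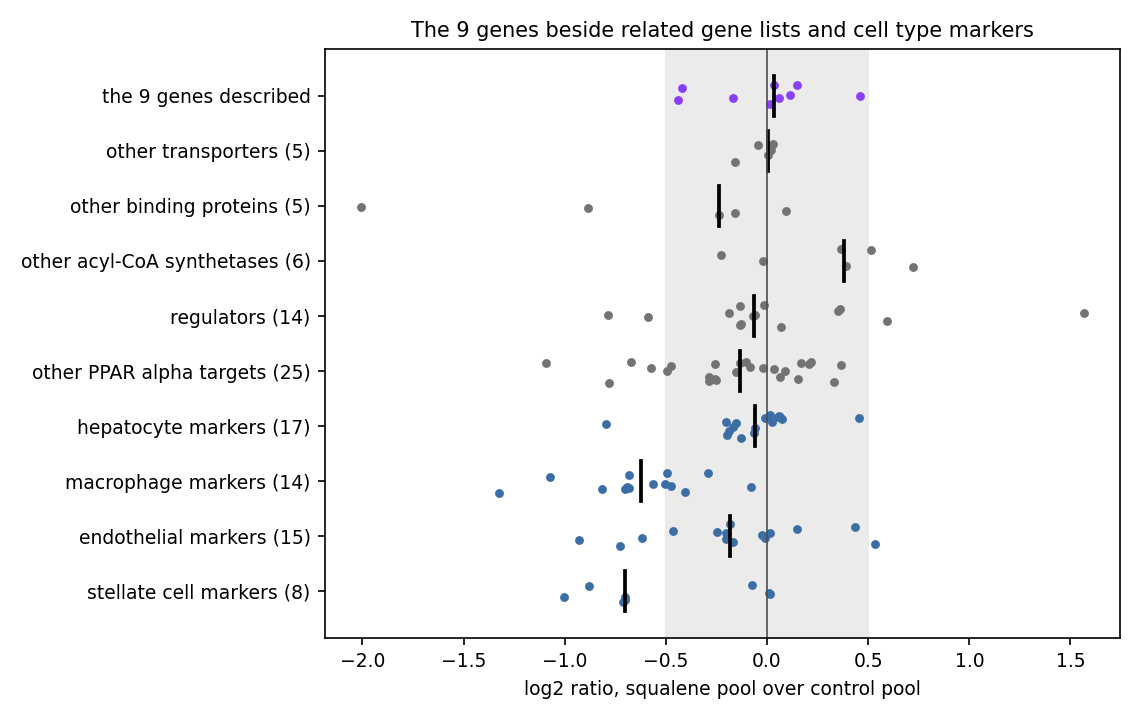
Log2 ratio (squalene over control) for well read genes of each list, 1 point per gene, with the number of genes in brackets, the list median as a black bar and the band of 0.5 shaded. The medians of the 9 genes (0.03) and of the well read other transporters (0.00) are near 0, while macrophage markers centre on -0.62 and stellate cell markers on -0.70.

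Cd36, Fabp4 and Fabp5 are also made by cells other than hepatocytes, so markers of those cells were read in the same pools. Of 19 macrophage markers found, 18 lay below 0 and 12 were lower by more than 0.5, and their summed signal was 5789.6 in the squalene pool and 8920.7 in the control pool. Clec4f, a Kupffer cell lectin, stood at -0.70 and Csf1r, the macrophage growth factor receptor, at -0.56 with -0.66 and -0.57 on other probe sets, Cd5l, a secreted macrophage protein, was at -0.40, and Adgre1, which encodes F4/80, was at -0.08. Of 19 endothelial markers, 14 lay below 0, 5 were lower and 2 higher, with a summed signal of 2856.1 in the squalene pool and 3825.6 in the control pool. Clec4g and Fcgr2b of sinusoidal cells were at -0.73 and -0.62, Stab2 was at -0.18, and Pecam1 was dim. Of the 15 well read endothelial markers 4 lay above 0, Stab1 (0.53), Flt1 (0.43), Lyve1 (0.15) and Kdr (0.02), while Cdh5 was at -0.01 and Nrp1 was the lowest of the 15 at -0.93. No marker of any list was at a signal of 0. Of 13 stellate cell markers, 7 were lower and 3 higher, with a summed signal of 3762.6 in the squalene pool and 4145.6 in the control pool. That sum was mostly the signal of Dcn, at 2415.0 in the squalene pool and 2540.5 in the control pool. The 2 brightest, the matrix genes Dcn and Reln, were at -0.07 and 0.02. Among the 8 well read stellate cell markers, 5 were lower and none was higher, with a median of -0.70. The lower ones were Lum (-0.88), Col1a2 (-0.71), Pdgfrb (-0.70), Col3a1 (-0.70) and Acta2. Acta2 read 73.1 in the squalene pool and 146.6 in the control pool.

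Of 7 adipocyte markers, 4 were higher, 2 lower and 1 between, and 2 were well read, Thrsp (1.63) and Lipe (0.42), which the liver also expresses. Their summed signal of 2221.8 in the squalene pool and 785 in the control pool was mostly that of Thrsp. Adipoq, which encodes the fat hormone adiponectin, was at 16.7 in the squalene pool and 1.0 in the control pool, both below the array median. All 12 muscle markers were dim, with 5 higher, 6 lower and 1 between. The brightest were Fabp3, at 29.4 in the squalene pool and 26.9 in the control pool (0.13), and Tnni2, at 8.6 in the squalene pool and 32.5 in the control pool (-1.92, with -0.42 and 1.06 on its other probe sets), and Ckm was at 5.7 in the squalene pool and 8.5 in the control pool. The part of macrophage, endothelial or other cells in the values of Fabp5, Fabp4 and Cd36 was not tested, and in bulk liver fewer cells of a type cannot be told apart from less RNA per cell.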

How the data were processed

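Liver RNA of 1 squalene and 1 control pool was hybridised to Affymetrix mouse arrays. The deposited values are linear probe set intensities that the authors made with MAS5, per the submitters' processing notes. Neither the software version nor the scaling target is stated there. Of 22690 probe sets, 64 array controls were left out, and 20380 of the other 22626 had 1 gene symbol in the platform annotation, 691 had several and 1555 had none. All 9 symbols matched the RefSeq gene table by Entrez number.

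The log2 ratio of squalene over control was taken without a pseudocount in Python 3.11.15 (numpy 2.4.6, pandas 2.3.3, matplotlib 3.10.9). Loess used limma 3.58.1 in R 4.3.3. With 1 array per group no p-value was computed, and the number of arrays limits the precision. Genes beyond 0.5 or 1.5 on the log2 scale were counted. All 9 genes are named. From each other list the 4 well read genes of largest ratio were named together with a fixed set, and from each marker list the 2 brightest and a fixed set. Slc27a3, Fabp9, Stab1, Flt1, Lyve1, Kdr, Cdh5 and Nrp1 were added after their values were seen. So were the named stellate cell markers other than Dcn and Reln, the promoter motifs and the division into 10 bins. The genes, lists and tests were chosen with earlier results of these data known. Steps were tested on simulated data with ratios of 1.5 in either direction in genes of the bright bin. That test does not cover ratios as small as those of the 9 genes.

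Alternatives were other choices of probe set, median centring, quantile normalization, loess, scaling to the spike-ins, filters on dim signals, a floor at the array median, a pseudocount of 3 and other bands.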

Additional observations from a re-analysis of the deposited data

How the results depend on the processing

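Of 108 values of the 9 genes over 12 alternatives each, 90 moved by less than the SD between probe sets in their bin of signal, 18 moved by more, and 11 changed sign. Many of the 90 could not move, so this count is no measure of robustness. Acsl5, Fabp2, Slc27a2 and Slc27a4 have 1 probe set, which every choice of probe set returns. All 9 genes were well read, so the filters on dim signals and the floor left every value as it was. The sign changed for Cd36 in 6 alternatives, Fabp1 in 3, and Acsl5 and Fabp4 in 1 each. It stayed the same in all 12 for Acsl4 (0.31 to 0.74), Slc27a2 (0.02 to 0.32), Slc27a4 (0.06 to 0.37), Fabp2 (-0.48 to -0.18) and Fabp5 (-0.80 to -0.16). The median of the 9 genes was -0.33 with the probe set of largest ratio, -0.27 over plain-suffix probe sets (identifiers of digits and _at alone) and 0.29 with scaling to the spike-ins. The count higher by more than 0.5 was 1 with the mean of the probe sets of a gene (23.6% of all genes under that setting), 1 with the probe set of largest ratio (30.5%), 1 with scaling to the spike-ins (33.3%) and 1 with a band of 0.3, which 18.3% of well read genes passed. The count lower was 1 with the mean of probe sets (20.4% of all genes), 3 with the largest ratio (25.9%), 2 over plain-suffix probe sets (20.6%) and 2 with a band of 0.3, which 15.1% of well read genes passed. With the largest ratio 1 gene, Fabp4, passed 1.5, as did 24.6% of all genes. Scaling to the spike-ins moved the medians of other transporters to 0.28, binding proteins to 0.23, synthetases to 0.43, regulators to 0.20 and other PPAR alpha targets to 0.11. That setting adds the same 0.26 to every ratio. Ratios of dim probe sets are limited by signal over background, with an SD of 1.91 between probe sets of 1 gene in the dim bin. No paired analysis was possible because each group has 1 array.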
